A study of Solenopsis invicta with 12 samples.

Results

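Of the 19230 genes in the antennal tables of the fire ant Solenopsis invicta, 3640 loci considered here carry an XLOC identifier, which the assembly of the antennal reads gave to each of its loci. The official gene set guided that assembly, so a locus can match an official model and can lack antennal reads of its own. The 510 loci described here are those with exactly 1 assembled transcript that has 2 or more exons in the deposited annotation, so each of them holds at least 1 intron and no alternative form. The other assembled loci are 2514 with a single exon and 616 with several transcripts. The rule used the annotation and no measured level. That annotation was built from these same antennal reads, so it is not independent of the levels.

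Antennal RNA was sequenced from 12 libraries in 3 worker classes with 4 bioreplicates each. P_Bb are polygyne workers of genotype SB/Sb, P_BB are polygyne workers of genotype SB/SB, and M_BB are monogyne workers of genotype SB/SB. SB and Sb are the forms of the social supergene, a chromosome region whose genes are inherited together, and polygyne colonies hold many queens where monogyne colonies hold 1. Every library is an amplified pool of antennae of workers from 1 colony and 1 genotype. P_Bb and P_BB of a bioreplicate number came from the same colony (Rui9, Gui3, Bang3 and Bo5), whereas each M_BB library came from a colony of its own (Rui7, Zhuang3, Tan1 and Rui1). Social form and colony can therefore not be told apart in any comparison with M_BB, and in these bulk samples fewer cells of a type and less RNA per cell cannot be told apart either.

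A multi-exon gene is copied into a precursor RNA from which the spliceosome removes the introns. A read that spans 2 exons records that step, and the bases at the ends of an intron show the strand of the gene even in a library that does not keep strand. An assembler joins such reads into transcript models, and a comparison with known genes then gives each model a class code. Class "=" means the same chain of introns as an official model, class u means no official gene at that place, and class x means exons that lie on the strand opposite to exons of an official gene. Transcription of both strands of one stretch is common in animal genomes and is known as antisense transcription.

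By class, 315 of the 510 loci were "=", 155 were u and 37 were x. Of the remaining loci, 2 were class o, a general overlap with an official gene, and 1 was class s, an intron match on the opposite strand. All 510 have a strand, with 250 on plus and 260 on minus, whereas 1948 of the 2514 single-exon loci have none. They lie on 390 scaffolds of the Si_gnH assembly, 304 of which hold a single such locus. Scaffold 5 holds the most, with 8 loci that are all class u, followed by scaffold 42 with 6 loci that are all class "=". Contigs, the shortest pieces of the assembly, hold 80 of the loci, and 28 loci start within the first 50 bases of their scaffold or contig.

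The loci are small genes as annotated. Of the 510, 310 had 2 exons, 119 had 3 exons and 81 had 4 or more. XLOC_006858 had the most, with 11 exons on the minus strand of scaffold 3, positions 1874495–1879981. XLOC_030710, XLOC_036088 and XLOC_036395 had 9 each. The median span was 1412 bases and the median length of the reference sequence used for counting was 813 bases. That sequence was the sum of the exons less 1 base per exon in all 510 loci and equalled the span in 0 of them, which is the length of spliced transcripts. The supplement of the study describes the assembled models as retaining introns, so whether reads from introns entered the levels below is not settled.

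The 876 introns had a median of 126 bases and ran from 5 to 110001 bases. Introns under 30 bases, which is shorter than most animal introns known to be spliced, numbered 88 in 82 loci, and each of them belonged to class "=". The u and x loci had 0 such introns among 191 and 45. The median intron was 108.5 bases in class "=", 134 in class u and 289 in class x. XLOC_036624 had the longest span, 111242 bases on scaffold 262, and its single intron of 110001 bases fills nearly all of it. XLOC_015616, with 83721 bases on scaffold 24, and XLOC_038625, with 62843 bases on scaffold 349, followed.

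The libraries held 1662249 to 4101327 expected counts, of which the 510 loci took 2.03% to 2.73%. The odorant receptor SiOR463 had counts in 12 of 12 libraries, at a median of 11.5 TPM (a level scaled for transcript length and library depth), while SiOR462 and SiOBP12 had counts in 9 each. Depth sets what can be seen, because a locus at 1 TPM rests on a few counts, and limits given for counts cover counting error only.

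Most of these loci were scarcely detected. The mean TPM over the 12 libraries had a median of 2.57 across the 510 loci, 94 loci had no count in any library and 213 had a count in all 12. The class code separated them. The 315 class "=" loci had a median of 0.48 TPM and all 94 loci with no count were among them, which is 29.8% of that class. The 155 class u loci had a median of 18.0 TPM and the 37 class x loci 36.4 TPM, and each of these 192 loci had a count somewhere. The plot of level by class code and exon number shows the same order within both exon groups. With 2 exons the medians were 0.59 TPM in class "=", 18.8 TPM in class u and 36.8 TPM in class x, and with 3 or more exons they were 0.36, 12.2 and 31.7 TPM. These medians are descriptions over loci and were not tested.

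**Figure D1:**
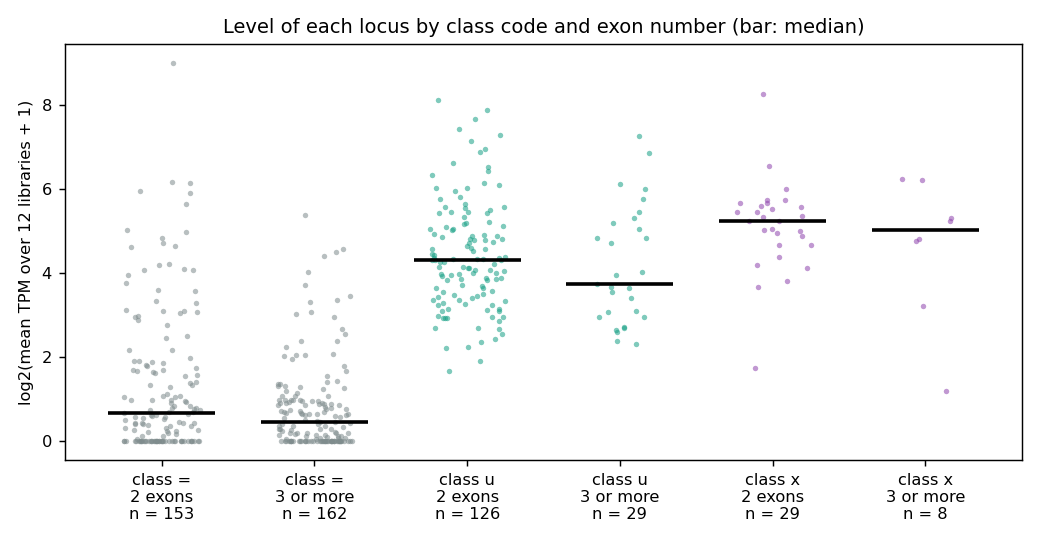
Mean TPM over 12 libraries of each locus, on a log2 scale with 1 added, by class code and exon number, with a black bar at the median of each group. Class "=" loci crowd at the bottom of the axis, with medians of 0.59 and 0.36 TPM, while class u and class x loci lie mostly between 10 and 100 TPM.

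Against the other assembled loci the level was lower in every library. The median TPM per library was 2.26 ± 0.35 for the 510 loci and 12.7 ± 0.98 for single-exon loci (SD, n = 12), a difference of -10.5 TPM (exact sign-flip permutation test over the 12 libraries, two-sided p = 0.000488, the smallest it can give). Loci with several transcripts had 27.2 ± 2.61 TPM, a difference of -25 TPM with the same exact p = 0.000488. The share of loci with at least 1 count was 60.2% ± 2.36 against 90.4% ± 1.28 for single-exon loci and 98.7% ± 0.23 for loci with several transcripts, lower in 12 of 12 libraries in both cases (exact p = 0.000488 each). The test speaks of libraries and not of loci. It treats the 2 libraries of a polygyne colony as independent, so the smallest p only records that the order recurred in all 12 libraries. The sets also come from an assembly of these same reads. The order against single-exon loci turned when class "=" was left out on both sides, an alternative chosen after seeing the data. The remaining 195 loci then had 20.1 TPM and the remaining single-exon loci 14.5 TPM (difference 5.56 TPM, exact p = 0.000488), and the share with a count was 98.0% against 97.4% (exact p = 0.2). Against loci with several transcripts the level stayed lower, by 9.83 TPM.

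**Figure D2:**
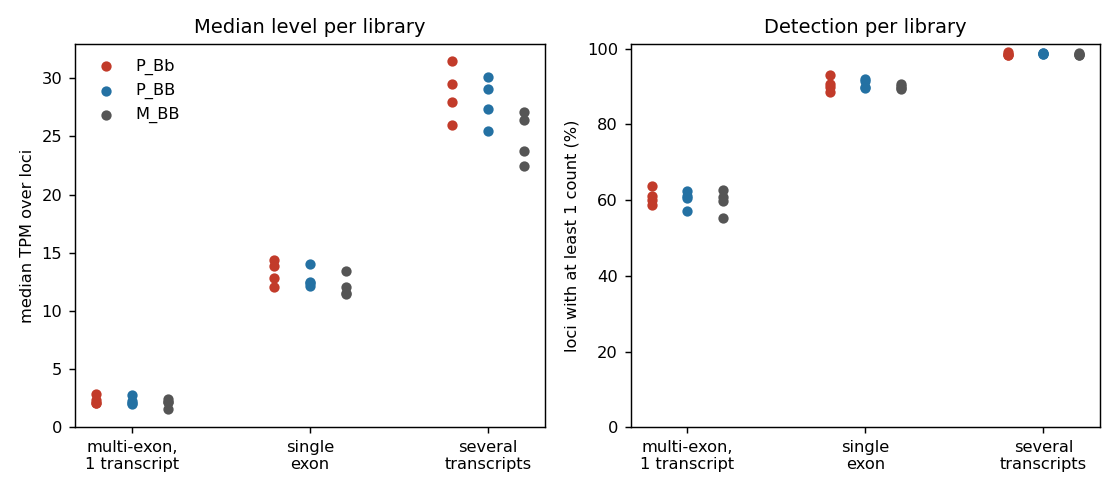
Median TPM (left) and percent of loci with at least 1 count (right) in each library for the multi-exon loci with 1 transcript, the single-exon loci and the loci with several transcripts. Points are libraries of P_Bb, P_BB and M_BB. The 12 libraries of the multi-exon loci lie between 1.57 and 2.88 TPM and between 55.3% and 63.7%, below every library of the other loci.

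A few loci carried much of the signal. XLOC_039388, a class "=" model that matches SINV14834 at positions 62563–63424 of scaffold 392, had the highest mean level at 510 ± 121 TPM (SD, n = 12). It consists of 2 exons separated by 5 bases. Its levels were 470, 472, 644 and 565 TPM in P_Bb, 377, 483, 593 and 397 TPM in P_BB, and 761, 534, 506 and 319 TPM in M_BB, so the classes overlapped throughout. It was an exception in its class, since the next class "=" locus, XLOC_022361, had 70.6 TPM.

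Scaffold 195 held 2 of the 5 most abundant loci. XLOC_034085 is a class x locus on its minus strand at positions 18208–28733, and all of its exon bases lie opposite a locus that carries the official name SINV26405. It had 232, 283, 248 and 172 TPM in P_Bb, 584, 289, 412 and 233 TPM in P_BB, and 449, 302, 310 and 163 TPM in M_BB. P_Bb was below P_BB in 4 of 4 colonies, but the difference did not pass (log2 fold change -0.76, SE 0.38, adjusted p = 1.0, edgeR quasi-likelihood test with Benjamini-Hochberg adjustment). XLOC_034078, a class u locus on the plus strand at positions 53442–59878, had 192, 353, 127 and 98.4 TPM in P_Bb, 521, 244, 246 and 171 TPM in P_BB, and 366, 171, 172 and 140 TPM in M_BB. Both loci were highest in P_BB replicate 2 and next highest in M_BB replicate 2, where together they took 20.6% and 19.3% of the counts of all 510 loci, against 7.14% to 13.8% in the other libraries. The remaining locus of scaffold 195 in the set, XLOC_034073 (class "="), had 11.3 TPM in M_BB replicate 2 and 151 TPM in P_BB replicate 6, so its order over the libraries was another one.

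XLOC_001606, a class u locus at positions 629–2331 of contig 25238, averaged 276 ± 151 TPM and was highest in M_BB replicate 2 with 626 TPM. XLOC_030756, class u on scaffold 135 at positions 514063–529073, averaged 200 ± 37.6 TPM with a lowest library of 149 and a highest of 263 TPM. Over 11509 exon bases this locus faces annotated exons on the opposite strand. Together these 5 loci held 16.6% to 31.5% of the counts of the 510 loci.

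The loci with the most exons were near the floor. XLOC_006858 had 7 counts in the 4 P_Bb libraries, 12 in P_BB and 3 in M_BB, and XLOC_030710 had 3 counts in all 12 libraries. XLOC_036088 averaged 1.47 TPM and XLOC_036395 averaged 4.18 TPM. None of these 4 loci, which are all class "=", passed the filter on low counts for the class comparisons. In all, 203 of the 510 loci passed that filter over 12 libraries, namely 27 class "=", 138 class u, 35 class x, 2 class o and 1 class s, and the counts that follow are over these 203.

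The genotype comparison sets P_Bb against the mean of P_BB and M_BB, to ask which transcripts differ with the supergene. Of the 203 loci, 2 (0.985%) passed at an adjusted p under 0.05, where 0.229% of all 10503 genes tested passed. There was 1 locus higher, beside 0.219% of all genes, and 1 lower, beside 0.00952%. Both also had no overlap in TPM between P_Bb and the SB/SB libraries, a pattern held by 0.419% of all genes. The study lists both as differing by genotype in these same libraries, so their direction is not independent evidence. At an unadjusted p under 0.05 (edgeR) there were 8 of the 203 loci, or 3.94%, against 2.29% of all genes. The number was 14 with the replicate block and 6 with the name prefix of the library as a covariate. The shares of all genes were not counted for these settings, so neither number can be read as an excess. The median log2 fold change was 0.09 over the 203 loci and -0.01 over all genes tested.

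XLOC_003527 was the locus that rose. It is a class u locus of 2 exons on the minus strand of contig 35149, positions 375–1233, with an intron of 328 bases and a counted length of 529 bases. Its levels were 87.7, 37.7, 97.1 and 93.8 TPM in P_Bb, 5.60, 7.81, 1.55 and 0 TPM in P_BB, and 8.23, 0, 0 and 0 TPM in M_BB. Every P_Bb library was above every SB/SB library. The counts behind these levels were 58, 17, 74 and 52 in P_Bb, 3, 5, 1 and 0 in P_BB, and 5, 0, 0 and 0 in M_BB. The log2 fold change was 4.61 (SE 0.65, adjusted p = 0.00336, edgeR), and as SB/SB workers had few counts its size depends on the prior count. From the summed counts, 201 in P_Bb and 14 in SB/SB workers, the ratio at equal depth was 26.5 with a 95% exact interval for counting error of 15.4 to 49.3. The adjusted p ranged from 8.26e-10 to 0.0219 over 5 other settings and the 12 fits that left out 1 library, and without M_BB replicate 2, which holds all 5 counts of M_BB, the log2 fold change was 6.41.

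XLOC_040838 was the locus that fell. It is a class u locus of 2 exons on the minus strand of scaffold 499, positions 85121–93828, with an intron of 152 bases, and its protein is uncharacterized. It had 86.3, 111, 95.3 and 107 TPM in P_Bb, 173, 165, 199 and 168 TPM in P_BB, and 140, 156, 141 and 139 TPM in M_BB. All 4 P_Bb libraries lay below all 8 SB/SB libraries, at a mean of 99.8 ± 11.1 TPM (n = 4) against 160 ± 20.7 TPM (n = 8). The log2 fold change was -0.74 (SE 0.14, adjusted p = 0.0446, edgeR), and of all 10503 genes tested it was the 1 gene that passed as lower by genotype. The size held under the alternatives, between -0.83 and -0.68, but the call did not. The adjusted p was 0.0628 with the replicate block, 0.0846 with the library name prefix as a covariate, 0.143 with limma and between 0.052 and 0.34 when any 1 of the 12 libraries was left out, while it was 0.000145 with DESeq2 and 0.0246 with upper-quartile factors. With the replicate block, 1 of the 203 loci passed, and it was XLOC_003527.

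XLOC_040839, named here after its values were seen, lies 3629 bases further along on the same strand of scaffold 499, with 3 exons at positions 97458–105306 and class u. Its levels were 46.7, 57.9, 57.2 and 52.9 TPM in P_Bb, 113, 54.1, 127 and 64.8 TPM in P_BB, and 54.98, 68.6, 79.7 and 43.3 TPM in M_BB. The classes overlapped, because M_BB replicate 7 was the lowest of all. The log2 fold change by genotype was -0.53 (SE 0.24, adjusted p = 0.999, edgeR), and the difference between this locus and its neighbour was not tested.

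**Figure D3:**
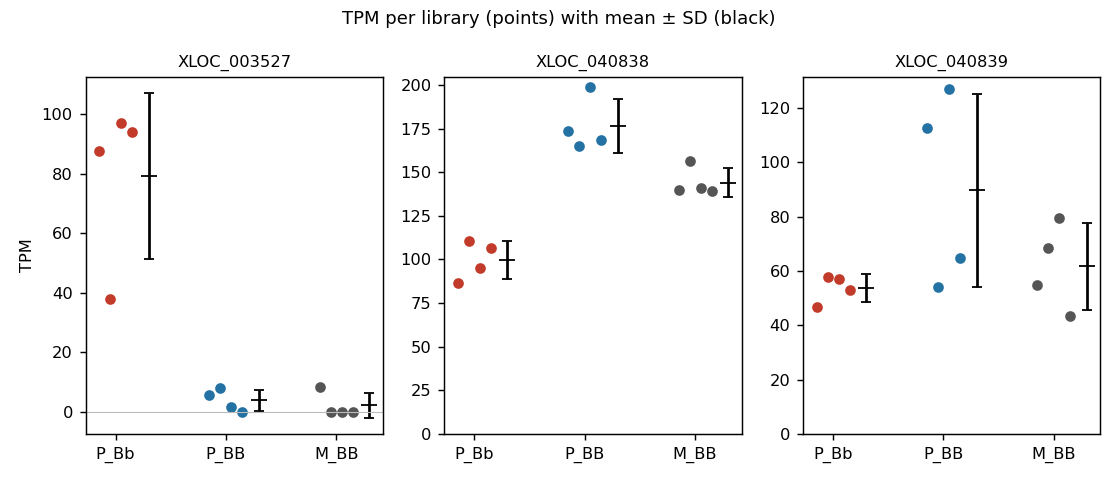
TPM per library of XLOC_003527, XLOC_040838 and XLOC_040839 in P_Bb, P_BB and M_BB, with mean ± SD (n = 4) in black. The P_Bb points of XLOC_003527 lie above 37 TPM and all others below 9 TPM, the P_Bb points of XLOC_040838 lie below all others, and those of XLOC_040839 overlap with M_BB.

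P_Bb and P_BB are nestmates that differ in genotype, and this comparison is free of the difference between colonies of both social forms. The main test has no term for colony, so it does not use the pairing of nestmates. Of the 203 loci, 0 passed (edgeR), against 0.133% of all genes tested, with 3 at an unadjusted p under 0.05, or 1.48% against 1.01%. DESeq2 called 2 and limma 0, also without a term for colony. With the replicate block edgeR called 0, where 11 of all genes passed. There were then 4 loci at an unadjusted p under 0.05, and the share of all genes was not counted. The 2 loci nearest to the threshold were those of the genotype comparison, XLOC_040838 (log2 fold change -0.86, SE 0.16, adjusted p = 0.0503, edgeR) and XLOC_003527 (4.25, SE 0.81, adjusted p = 0.0552, edgeR), and DESeq2 called both. P_Bb was below P_BB in 4 of 4 colonies for XLOC_040838 and above it in 4 of 4 for XLOC_003527. The other locus with no overlap between these classes was XLOC_012579. Of its exon bases, 5954 face annotated exons on the opposite strand, a limit described below. This locus, class u at positions 2848517–2854790 of scaffold 15, had 13.4, 12.9, 13.3 and 12.7 TPM in P_Bb and 15.2, 16.6, 14.4 and 14.0 TPM in P_BB, but its M_BB libraries ran from 9.40 to 14.2 TPM and its adjusted p was 1.0 (edgeR). These 3 loci are 1.48% of the 203, and 1.31% of all genes tested had no overlap.

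The social form comparison sets the mean of both polygyne classes against M_BB. The model has no term for colony and treats the 2 libraries of a polygyne colony as independent, so its p can be too small. Of the 203 loci, 0 passed with edgeR, DESeq2 or limma, where 0.0476% of all genes passed with edgeR. At an unadjusted p under 0.05 there were 19 loci, or 9.36%, against 8.67% of all genes tested. Of these, 14 had a higher and 5 a lower value in polygyne workers, which is 6.9% and 2.46% of the loci, beside 3.68% and 5% of all genes. The 19 became 24 with the replicate block and 10 with the library name prefix as a covariate, without a count over all genes. The prefix was LGC16 in M_BB replicates 2 and 7 and in replicate 7 of both polygyne classes, and LGC elsewhere. It is thus not balanced over the social forms, and what it stands for is not stated. The median log2 fold change was 0.10 over the loci and -0.02 over all genes, and it was above 0 in 128 of the 203. It stayed above that of all genes under each other scaling or test, at 0.07 to 0.17. Of the 10503 genes tested, 7808 were official genes. The other assembled loci also held more of the counts in polygyne libraries on average. Single-exon loci held 17.77% against 15.75% in M_BB, and loci with several transcripts held 16.25% against 14.36%. Official genes held 63.65% against 67.6%. A higher polygyne mean was thus not confined to the 510 loci. These differences in share were not tested.

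The next loci described are those that the study lists as differing by social form in these same libraries, and each missed the threshold here. XLOC_012652, an uncharacterized class u locus of 3 exons spread over 23457 bases of scaffold 15, had 39.9, 31.1, 56.4 and 50.1 TPM in P_Bb, 40.7, 34.5, 69.2 and 50.0 TPM in P_BB, and 12.1, 40.5, 14.3 and 22.3 TPM in M_BB. M_BB replicate 3 lay inside the polygyne range and the other 3 M_BB libraries lay below it. Its log2 fold change was 1.04 (SE 0.26, unadjusted p = 0.00105, adjusted p = 0.408, edgeR). In this locus 6342 exon bases face annotated exons on the opposite strand. XLOC_001622, uncharacterized and class u, at positions 31–2314 of contig 25297, had 41.0, 73.9, 51.5 and 60.0 TPM in P_Bb, 24.5, 72.9, 38.3 and 52.4 TPM in P_BB, and 61.1, 104, 99.6 and 92.4 TPM in M_BB. Only M_BB replicate 2 overlapped with polygyne libraries, and the log2 fold change was -0.84 (SE 0.22, adjusted p = 0.445, edgeR).

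XLOC_042434 is a class x locus of 3 exons on scaffold 704, positions 5890–15611, opposite SINV17650, with 7905 of its bases facing exons on the other strand. The study predicts a DnaJ protein of subfamily B, and such proteins are co-chaperones that pass unfolded proteins to Hsp70. It had 77.3, 83.6, 84.9 and 71.1 TPM in P_Bb, 76.3, 84.2, 79.2 and 87.5 TPM in P_BB, and 39.6, 71.7, 59.5 and 56.4 TPM in M_BB. The highest M_BB library stood just above the lowest P_Bb library, and the log2 fold change was 0.47 (SE 0.13, adjusted p = 0.451, edgeR).

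XLOC_015616 was the 1 locus of the 203 with no overlap between the social forms, or 0.493%, where 0.686% of all genes had none. It is a class x locus of 2 exons opposite SINV21749, with an intron of 75281 bases. Its levels were 55.1, 54.5, 59.0 and 60.0 TPM in P_Bb, 61.8, 50.9, 50.3 and 50.0 TPM in P_BB, and 31.2, 47.0, 39.0 and 42.1 TPM in M_BB. The log2 fold change was 0.43 (SE 0.15, adjusted p = 0.484, edgeR).

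**Figure D4:**
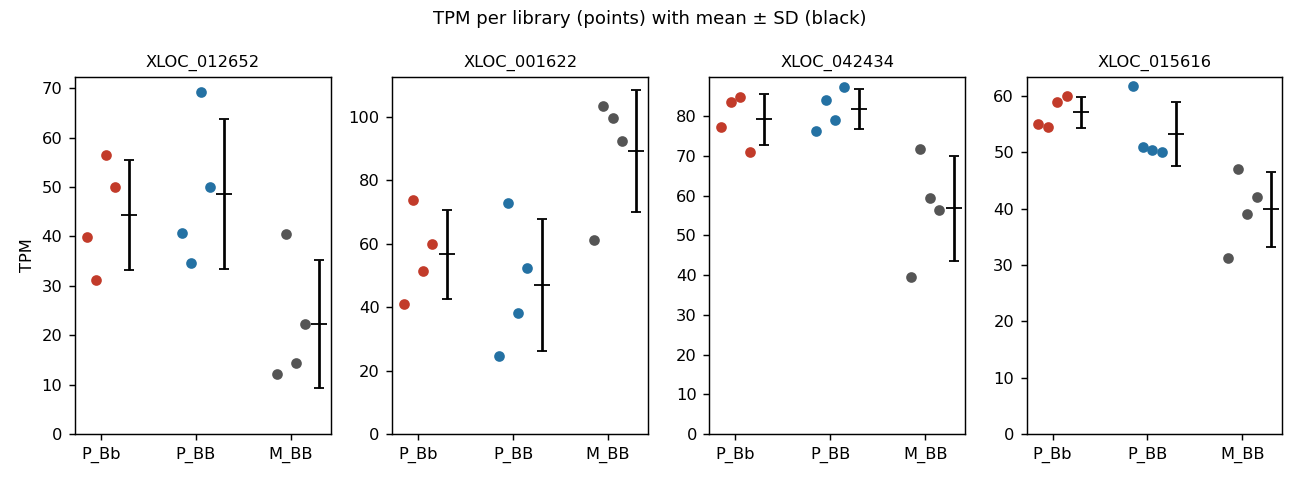
TPM per library of XLOC_012652, XLOC_001622, XLOC_042434 and XLOC_015616 in P_Bb, P_BB and M_BB, with mean ± SD (n = 4) in black. M_BB lies lower on average in XLOC_012652, XLOC_042434 and XLOC_015616 and higher in XLOC_001622, and of these panels XLOC_015616 is the one where M_BB and polygyne points do not overlap.

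The share of a library's counts held by all 510 loci did not differ detectably between classes. It was 2.24% ± 0.18 in P_Bb (n = 4) and 2.33% ± 0.21 in SB/SB workers (n = 8), a difference of -0.0945 percentage points (exact permutation test over libraries, two-sided p = 0.451). Polygyne libraries held 2.32% ± 0.23 (n = 8) and M_BB 2.27% ± 0.12 (n = 4), a difference of 0.0532 (exact p = 0.691). With labels permuted only within a bioreplicate number, a test added after seeing the data, the exact p was 0.42 by genotype and 0.642 by social form. Neither direction is firm. The genotype difference was 0.045 for shares of TPM, 0.0287 without the 10 most abundant loci and 0.00233 for loci with 3 or more exons. In the loci with 3 or more exons the social form difference was 0.0311 (exact permutation test over libraries, p = 0.0323). Permuting over libraries treats the 2 libraries of a polygyne colony as independent, so this p can be too small. Labels were not permuted within a bioreplicate number for these loci. P_BB replicate 2 had the highest share, 2.73%, and without it the social form difference was -0.00486.

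Colony was tested in the 8 polygyne libraries, 2 per colony, with genotype in the model. Here colony, bioreplicate and collection day are 1 term. Of 209 loci that passed the filter, 7 passed the test (edgeR), or 3.35%, where 1.92% of all 10702 genes passed. At an unadjusted p under 0.05 there were 51, or 24.4%, against 24.8% of all genes. The number depended on single libraries and on the tool. DESeq2 called 19 of the loci and 640 of all 10702 genes, and limma called 0 of the loci and 5 of all genes. Leaving out 1 library moved the number widely, among these loci and among all genes alike. Each such fit leaves 1 library in a colony.

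XLOC_031724, class u with 2 exons over 8958 bases of scaffold 151, had the smallest p (adjusted p = 0.0162, edgeR). Its P_Bb and P_BB levels were 16.6 and 21.3 TPM in Rui9, 31.5 and 25.6 in Gui3, 2.57 and 3.65 in Bang3, and 16.9 and 8.05 in Bo5. The 2 libraries of Bang3 were the lowest by far, 9.17 times below those of Gui3 on average. M_BB replicate 6, sampled on the same days as Bang3, was also the lowest of its class at 2.74 TPM, against 7.93 to 12.0 TPM in the other M_BB libraries.

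XLOC_003143, class u at positions 213–1316 of contig 32334, had P_Bb and P_BB levels of 35.1 and 72.6 TPM in Rui9, 18.0 and 13.4 in Gui3, 6.84 and 8.87 in Bang3, and 10.8 and 4.50 in Bo5 (adjusted p = 0.0204, edgeR). Rui9 was the highest colony. The M_BB libraries spread further, with 4.34, 64.2, 75.9 and 34.9 TPM.

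The class x loci XLOC_039752, opposite SINV22736, and XLOC_042084, opposite SINV18308, were also highest in Rui9, at 69.4 and 65.2 TPM on average, and lowest at 32.4 TPM in Bo5 and 32.0 TPM in Bang3 (adjusted p = 0.0223 and 0.0324, edgeR). XLOC_008245, a class x locus opposite SINV14761, was highest in Gui3, with 69.8 TPM in P_Bb and 58.6 TPM in P_BB, and lowest in Bang3, with 22.6 TPM in P_Bb and 26.9 TPM in P_BB. XLOC_042936 (class u) was highest in Rui9, with 39.1 TPM in P_Bb and 32.5 TPM in P_BB, 1.92 times the mean of Bang3. XLOC_018688 (class u) was highest in Bang3, with 23.4 TPM in P_Bb and 22.3 TPM in P_BB, and lowest in Gui3. The adjusted p of these last 3 loci was 0.0335, 0.0345 and 0.0489 (edgeR). In M_BB, XLOC_042084 was highest in replicate 2, the number of Rui9 (69.1 TPM). The highest M_BB library of XLOC_039752, XLOC_008245, XLOC_042936 and XLOC_018688 had another number than their highest colony. The lowest M_BB library had the number of the lowest colony for XLOC_042084, XLOC_039752 and XLOC_008245 (36.0, 33.1 and 18.1 TPM). It did not for XLOC_042936 and XLOC_018688.

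**Figure D5:**
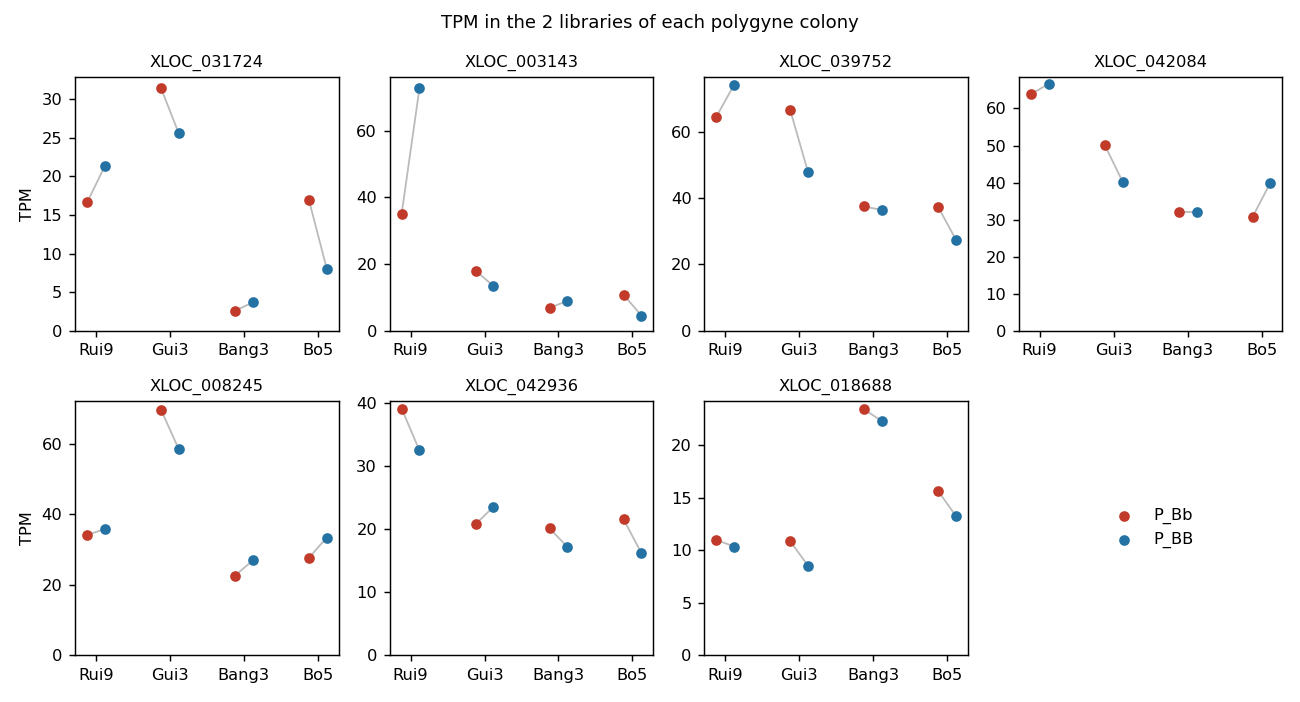
TPM of the 7 loci that passed the test of colony, in the P_Bb and P_BB library of each of the 4 polygyne colonies, joined by a grey line. The lines are short beside the distance between colonies in most panels, and Rui9 is highest in 4 of the 7 loci.

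Where both strands are transcribed, the posterior SD deposited for each count was used to describe how firmly reads were assigned between entries. The exons of 80 of the 510 loci face annotated exons on the opposite strand, 37 of them class x, 36 class u, 6 class "=" and 1 class s. For 28 of these loci the partner is in the tables under an XLOC identifier of its own, and these are 10 class x, 15 class u and 3 class "=" loci. The library kit is not stated to keep strand, so reads of a locus and of its partner cannot be told apart over the bases where they face each other. Of the 28 loci, 10 were below their partner in all 12 libraries and 1 was above it in all 12, XLOC_041791, with 31.8 TPM beside 13.6 TPM for its partner. Of them, 13 had at least 90% of their exon bases opposite the partner and a mean of at least 10 counts. In these 13 the posterior SD had a median of 16.01% of the count (3.56% to 35.7%). The median was 0.20% (0% to 1.845%) in the 51 loci of that depth that face exons of a locus with no such entry. It was 0.21% in the 122 that face none, but these ran from 0% to 31.05%, so a high value also occurs without a partner. Official genes have entries of their own under other identifiers, and their counts were not compared here. A low posterior SD cannot show that reads of the opposite strand are absent. Where no other entry holds the same bases, all such reads are given to the locus.

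Of the 7 loci that passed the test of colony, 5 face exons on the opposite strand. For XLOC_008245 and XLOC_039752, which face official genes over 2245 and 9699 bases, the posterior SD was 0.23% and 0.11% of the count. These low values do not show that the levels are free of reads of the opposite strand. The other 3 have a tabled XLOC partner. XLOC_018688 has all of its exon bases opposite XLOC_018624, as does its neighbour XLOC_018687. Its posterior SD was 20.1% of the count, and in M_BB replicate 7 it had 1 count where the partner had 985. XLOC_031724 has 90.5% of its exon bases opposite XLOC_031733 (posterior SD 17.9%), and XLOC_042084 has all of them opposite XLOC_042091 (6.49%). For XLOC_040838 and XLOC_003527 the posterior SD was 0.061% and 0.16%, and no exon on the opposite strand was annotated. Some of the 510 loci are partners of each other. XLOC_035643 and XLOC_035631 on scaffold 232 face each other over 1141 bases, and the first of them took 0% to 81.9% of the pair's counts, depending on the library.

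The steadiest loci with at least 50 counts on average were XLOC_022239 (class x, 27.1 ± 3.14 TPM, coefficient of variation 11.6%), XLOC_040953 (class u, 84.2 ± 9.96 TPM, 11.8%) and XLOC_038625 (class u, 15.8 ± 1.88 TPM, 11.9%), each with a highest library at most 1.5 times the lowest. XLOC_038625 kept this narrow range although 41.6% of its exon bases face a partner. XLOC_000332, XLOC_035699 and XLOC_043435 varied most, with coefficients of variation of 89.1%, 66.2% and 64.6%.

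XLOC_000332, a class x locus at the very start of contig 22103, ran over a 29.8-fold range, with 46.8, 102, 30.9 and 8.16 TPM in P_Bb, 74.0, 14.1, 12.4 and 30.2 TPM in P_BB, and 124, 4.17, 31.6 and 35.4 TPM in M_BB. It was highest in M_BB replicate 2, P_Bb replicate 3 and P_BB replicate 2 and lowest in M_BB replicate 3. Of its exon bases, 97.8% face XLOC_000333, and its posterior SD was 14.5% of the count. XLOC_035699, class x on scaffold 233, had 22.2, 42.1, 17.5 and 8.16 TPM in P_Bb, 38.1, 13.2, 13.3 and 11.1 TPM in P_BB, and 41.3, 5.21, 13.3 and 13.1 TPM in M_BB, and the same 3 libraries were the highest. Of its exon bases, 94.6% face XLOC_035689, and its posterior SD was 6.31% of the count. P_BB replicate 2, P_Bb replicate 3 and M_BB replicate 2 also had the lowest shares of all counts in official genes (55.74%, 58.74% and 62.11%). Their shares in single-exon loci were the highest (21.99%, 20.5% and 19.55%). Whether this bears on these loci was not tested. XLOC_043435, class u on scaffold 938, had 87.8, 190, 42.1 and 66.1 TPM in P_Bb, 136, 238, 50.0 and 220 TPM in P_BB, and 342, 158, 51.2 and 282 TPM in M_BB, and in each class replicate 6 was the lowest. Its adjusted p for colony was 0.0511 (edgeR), just outside the threshold.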

How the data were processed

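Antennal RNA of 12 libraries was sequenced by the authors as amplified, paired-end libraries. They built transcript models on the Si_gnH assembly with TopHat, Cufflinks and Cuffmerge, with the official gene set as a guide, and kept assembled loci that had an open reading frame and a similar known protein. Reads were mapped with Bowtie2 and quantified with RSEM. The authors deposited expected counts, which are not scaled for depth, TPM, and a posterior SD of each count. The deposited annotation gives exon positions (other values, on Si_gnH, counted from 1). Sequences of the loci were not analysed here, and 1 assembled locus is not reported here.

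The deposited expected counts were rounded and fitted with edgeR 4.0.16 (R 4.3.3; TMM, filterByExpr, robust quasi-likelihood test, no term for bioreplicate, as in the study's methods) over all genes, 10503 in 12 libraries and 10702 in the 8 polygyne libraries, with Benjamini-Hochberg adjustment. Each SE given with edgeR is the absolute log2 fold change divided by the square root of its F statistic. It is approximate where counts are few. The authors' EBSeq was not run. DESeq2 1.42.0 and limma 3.58.1 on log2(deposited TPM + 1) were alternatives, beside upper-quartile factors, other filters (none, or 10 counts in every library), an adjusted p under 0.01, 3 or more exons, a replicate block, a term for the name prefix of the library, and leaving out each library. Tables were joined with pandas 2.3.3 and exact tests run with scipy 1.17.1 (Python 3.11.15). Depth was 1662249 to 4101327 expected counts. On simulated counts with a log2 change of 2 in 200 genes, edgeR recovered 88% by genotype (10308 genes, 8 false calls) and 48.5% by colony (10414 genes, 4 false calls).

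The loci and lists were chosen with earlier results of these data known. Named loci are those in the study's table of differing genes, those that passed a test, the 5 with the highest mean TPM, those with the most exons (4 after a tie) and the 3 longest spans, those whose classes did not overlap (up to 3 per contrast and direction), and the 3 least and 3 most variable with a mean of at least 50 counts. Where others are named, it was for an overlap or a place beside these. Libraries of a number are paired, since P_Bb and P_BB share a colony and the M_BB colony was sampled on the same day. Their deviations from class means correlated with a median of 0.233 across genes for equal numbers (0.402 within a colony) and -0.0876 for different numbers. No libraries of a class were copies (chi-square per degree of freedom at least 6.54).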

Additional observations from a re-analysis of the deposited data

Results flagged for a closer look

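In 9 of 93 groups of 4 libraries looked at (30 loci and the share of counts, in 3 classes), 1 library stood far from the other 3. The rule used gives about 1 in 20 for independent normal values, and that rate does not apply here. The groups share the same 12 libraries, and some loci were named because they varied most. Where the other 3 libraries had 0 TPM, as in M_BB for XLOC_003527 and XLOC_030710, any count is flagged. XLOC_003527 had 37.7 TPM in P_Bb replicate 3, against 87.7 to 97.1 TPM in the other P_Bb libraries, and 8.23 TPM in M_BB replicate 2, against 0 TPM in the other M_BB libraries. XLOC_040838 had 156 TPM in M_BB replicate 3, against 139 to 141 TPM in the other M_BB libraries. XLOC_003143 had 72.6 TPM in P_BB replicate 2, against 4.50 to 13.4 TPM in the other P_BB libraries. XLOC_042936 had 39.1 TPM in P_Bb replicate 2, against 20.1 to 21.5 TPM in the other P_Bb libraries. XLOC_034078 had 366 TPM in M_BB replicate 2, against 140 to 172 TPM. XLOC_015616 had 61.8 TPM in P_BB replicate 2, against 50.0 to 50.9 TPM, and XLOC_035699 had 38.1 TPM in that library, against 11.1 to 13.3 TPM. XLOC_030710 had 0.47 TPM in M_BB replicate 3, which is 1 count, against 0 TPM in the other M_BB libraries. Of the 9, 6 fell in a replicate 2 library and 3 in a replicate 3 library, and what sets these libraries apart was not tested. P_BB replicate 2, P_Bb replicate 3 and M_BB replicate 2 held the lowest shares of counts in official genes (55.74%, 58.74% and 62.11%). M_BB replicate 3 held the highest (71.24%).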

How the results depend on the processing

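The number of loci that passed by genotype was 2. It was 1 without a filter on low counts, with the replicate block, with the library name prefix, with limma and at an adjusted p under 0.01, 0 with at least 10 counts in every library (XLOC_003527 is then not tested) and with 3 or more exons, and 1 whichever library was left out. Between P_Bb and P_BB the number was 0, and it was 2 with upper-quartile factors, without a filter and with DESeq2, and 0 to 2 with a library left out. The colony number was 7, and it was 26 without a filter, 4 with at least 10 counts in every library, 19 with DESeq2, 0 with limma, at an adjusted p under 0.01 or with 3 or more exons, and 0 to 62 with a library left out. The social form number was 0 in all 21 alternatives. With the replicate block, 1 locus passed by genotype and 0 by social form and between P_Bb and P_BB. Of all genes, 22, 0 and 11 passed. At an unadjusted p under 0.05 (edgeR) there were 14, 24 and 4 loci with that block, and 6, 10 and 3 with the library name prefix. The shares of all genes at that unadjusted p were not counted for these settings. The colony test has no such block, since colony is its own term. The share of counts by genotype differed by -0.0945 percentage points, and turned to 0.045 for shares of TPM (p = 0.428), 0.0287 without the 10 most abundant loci (p = 0.535) and 0.00233 with 3 or more exons (p = 0.877, all exact permutation tests). The social form difference was 0.0311 with 3 or more exons (exact p = 0.0323), and -0.00486 to 0.109 with a library left out. That p treats the libraries of a polygyne colony as independent and can be too small. The level differences to single-exon loci turned to 5.56 TPM and 0.547 percentage points of loci with a count when class "=" was left out. The causes were not tested. Of 153 alternative values of named loci, 132 kept their direction and side of the threshold, 15 no longer passed, all for XLOC_040838 by genotype, and 6 passed anew, for XLOC_040838 and XLOC_003527 between P_Bb and P_BB. Of the 315 class "=" loci, 288 did not reach the tests, and whether depth or absent expression sets this was not tested.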
